A study of Mus musculus with 39 samples.

Results

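The genes described here are the mouse zinc finger genes whose symbol is Zfp followed by 3 digits. They were chosen by that symbol alone, and 273 of the 16979 genes in the larger of 2 deposited expression tables have it, as do 244 of the 13938 genes in the smaller one. The 273 carry 272 symbols, because Zfp976 names 2 gene models (ENSMUSG00000092335 and ENSMUSG00000074158).

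RNA from mouse hindlimb muscle and from its stem cells (satellite cells) was sequenced in 39 libraries of 10 groups. In the labelling groups the mice were Pax7CreER/+: UPRTHA/+, so UPRT, the enzyme a cell needs to use 4-thiouracil (4tU, a form of uracil) in making RNA, was present only where Pax7-CreER had been active. 4tU was injected 6 h before harvest, or every 12 h for 1 d or for 4 d, and labelled RNA was pulled down from the RNA of whole hindlimb muscle (6 h, 1 d and 4 d label, n = 4 each). In the isolation label (n = 4) 4tU was given over the roughly 6 h in which stem cells were purified, and labelled RNA was pulled down from those cells. Total RNA came from isolated stem cells, from whole muscle, and from stem cells isolated with DMSO or with alpha-amanitin, an RNA polymerase II inhibitor, dissolved in it (n = 4 each). The sources used here do not give the dose of alpha-amanitin. The smaller table holds stem cells of mice perfused with 1% paraformaldehyde before sorting (fixed, n = 4) and of unfixed mice (n = 3), for which the labels give no genotype. The labels give no age, sex or batch, and do not say whether replicates were separate animals. The p-values therefore measure only the spread between these libraries, which may be technical.

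Values are RPKM (reads per kilobase of a gene's model, scaled for library size), and a gene was called higher or lower at a Benjamini-Hochberg adjusted p under 0.05 in limma, adjusted over every gene of the table. Folds were taken after adding 0.5 RPKM, on the log2(RPKM + 0.5) scale, so the change of a gene at a low level is understated. Recovered reads per library ran from 2321903 in the isolation label to 102619074 in whole muscle. Alpha-amanitin replicate 1 and DMSO replicate 1 stood apart from the other libraries of their groups before any gene was compared. The factor by which the authors scaled the library size was 1.54 in alpha-amanitin replicate 1 and 0.917 to 0.980 in the others, and 1.25 in DMSO replicate 1 against 1.60 to 1.66. Results of that comparison are therefore also given without them. Satellite cell markers held 0.770% of reads in isolated cells and 0.0154% in whole muscle, and after 6 h, 1 d and 4 d of label 0.0345%, 0.0206% and 0.0187%. Pax7 itself, a defining gene of these cells, was at 17.9 RPKM in isolated cells, 0.318 RPKM in the 6 h label and 0.0889 RPKM in whole muscle. None of the satellite cell or muscle fibre markers was at 0 in every library of any group.

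Most C2H2 zinc finger proteins bind DNA through a row of fingers, each a short loop held by a zinc ion between paired cysteines and histidines. The largest class in mammals also carries a KRAB box, which recruits the co-repressor Trim28 and, through it, the histone methyltransferase Setdb1, and many of these proteins silence transposable elements. KRAB genes arose by local duplication and lie in clusters of near-identical copies, and transcripts of many zinc finger genes are known to turn over quickly.

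The fingers and the clustering were both visible in these genes. The longest open reading frame of 271 of them, read from the reference transcripts, had a median of 10 finger patterns (one finger: a pair of cysteines, then a pair of histidines, at fixed spacing) and at most 36. In 223 there were at least 5 fingers and in 145 at least 10. Letters of the KRAB A box were found in 125 reading frames and not in 146. The search misses diverged boxes, such as that of Zfp445, so the second class holds some KRAB genes. The median number of fingers was 12 where the letters were found and 7.5 where they were not. Zfp146, which consists almost only of fingers, had 10 in 292 residues, while Zfp106, an RNA-binding protein, had 3 in 1888 and Zfp706 had 1 in 76. Chromosome 7 carried 66 of the 273 genes, 5.13% of its measured genes, chromosome 17 carried 31 and chromosome 13 carried 21. Within 100 kb of another of these genes lay 134, among them 89 with and 43 without KRAB letters. Because near-identical copies can share reads, values in such clusters are uncertain. The spans of 31 genes overlap another measured gene, 25 of them one on the other strand, including Zfp219 with Arhgef40 and Zfp866 with Atp13a1. The sources used here do not say whether the counting used strand.

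Promoters from RefSeq (GRCm38.p6, 250 bases before to 50 after the start site) matched 226 of the genes. The letters ACTACA, then any 2 bases, then TCC, searched on both strands, are the core of the site bound by the human counterpart of Zfp143, itself one of these genes. They were in 29 of the 226 promoters (12.8%) and in 3.81% of the promoters of the 12276 measured genes that matched the table. Where a gene of the 226 had several promoters, that nearest the start of its gene model was used. For the 12276 it was the promoter of lowest coordinate, so the shares here compare promoters picked by different rules. Shares of the other letters searched on both strands lay closer together, 18.6% and 15.4% for the ETS-type CCGGAAG and 5.31% and 9.12% for TATAAA. Of 31 matches to the first, 24 read as the reverse complement along the gene's strand and 23 ended within 100 bases before the start site, and 0 overlapped the ETS letters. The windows below are examples from the 29. Zfp146, Zfp189 and Zfp358 recur in the comparisons that follow. Zfp260, Zfp429, Zfp748, Zfp273 and Zfp112 were picked after their values were seen. Capitals mark the match, lower case up to 20 bases on either side.
Zfp146, chr7:30169840-30169890, minus strand: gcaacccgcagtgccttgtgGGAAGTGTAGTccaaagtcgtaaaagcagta
Zfp260, chr7:30095028-30095075, plus strand: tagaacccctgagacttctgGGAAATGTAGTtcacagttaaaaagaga
Zfp429, chr13:67399807-67399857, minus strand: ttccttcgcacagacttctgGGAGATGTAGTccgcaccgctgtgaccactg
Zfp748, chr13:67553153-67553197, minus strand: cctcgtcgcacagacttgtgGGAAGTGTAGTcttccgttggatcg
Zfp273, chr13:67813730-67813780, plus strand: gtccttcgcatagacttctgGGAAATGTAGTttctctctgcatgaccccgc
Zfp189, chr4:49521135-49521175, plus strand: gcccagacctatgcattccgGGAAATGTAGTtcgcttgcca
Zfp112, chr7:24112152-24112202, plus strand: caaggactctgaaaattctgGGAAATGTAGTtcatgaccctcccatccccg
Zfp358, chr8:3493093-3493137, plus strand: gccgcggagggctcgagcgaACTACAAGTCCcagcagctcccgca
Zfp358 alone among the 8 carries the letters as written, and Zfp112 has 3 matches within its 300 bases. A match is a description of these letters and not evidence of binding.

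Zinc finger transcripts were low in every group, and their level set the 6 h label apart from the longer labels. The median gene stood at 2.84 RPKM ± 0.111 (SD, n = 4) in the 6 h label, at 1.58 RPKM ± 0.067 in the 1 d label and at 1.60 RPKM ± 0.019 in the 4 d label. Isolated cells and DMSO cells both stood at 1.91 RPKM (SD 0.043 and 0.073), whole muscle at 1.75 RPKM ± 0.063, alpha-amanitin at 1.62 RPKM ± 0.088 and the isolation label at 1.27 RPKM ± 0.146. The 4 libraries of the 6 h label, at 2.67 to 2.92 RPKM, did not overlap with those of any other group of that table. The median over all measured genes moved less between the labels, with 3.32 RPKM at 6 h, 2.39 RPKM at 1 d and 2.35 RPKM at 4 d. At 1 RPKM or more in the group mean were 213 of the 273 genes (78.0%) in the 6 h label, against 68.2% of all genes, and between 170 and 216 in the other 7 groups.

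**Figure D1:**
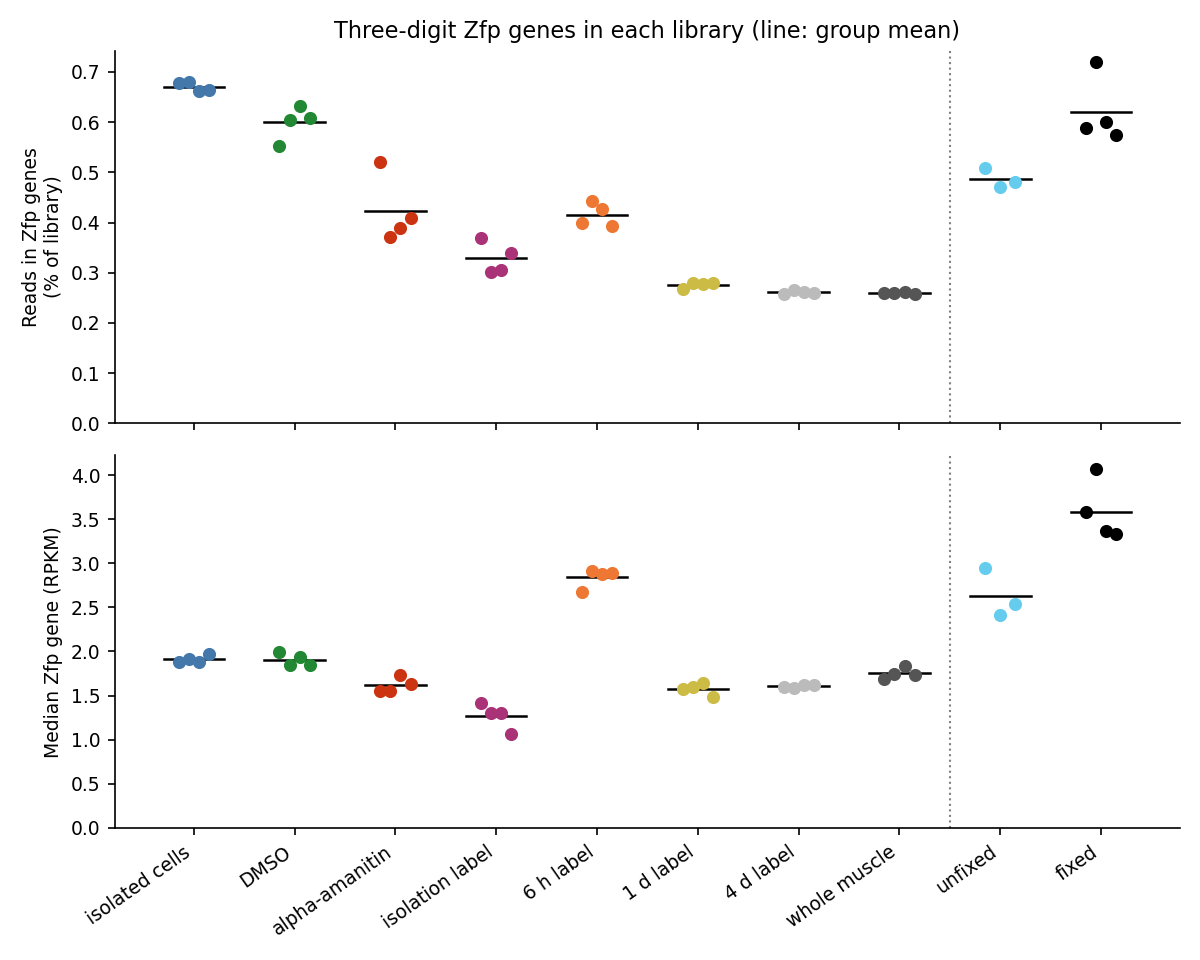
Upper panel, reads that fall in the 3-digit Zfp genes as a percentage of the library. Lower panel, RPKM of the median Zfp gene. Each point is 1 library and each line a group mean; right of the dotted line is the table of fixed and unfixed cells, scaled separately. The 6 h label libraries lie highest of the larger table in the lower panel, at 2.67 to 2.92 RPKM, while the isolated cells lie highest in the upper panel, with a mean of 0.671%.

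As a share of all reads, the genes made up 0.671% ± 0.009 (SD, n = 4) in isolated cells and 0.259% ± 0.002 in whole muscle. The shares were 0.600% ± 0.034 with DMSO, 0.422% ± 0.068 with alpha-amanitin, 0.329% ± 0.031 in the isolation label, and 0.415% ± 0.023, 0.276% ± 0.005 and 0.261% ± 0.004 after 6 h, 1 d and 4 d of label. In the order of these shares, neighbouring groups whose libraries overlapped were alpha-amanitin and 6 h label, and 4 d label and whole muscle. In bulk RNA, fewer cells of a type and less RNA per cell cannot be told apart.

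Single genes had their highest group mean in the 6 h label in 102 cases, in isolated cells in 52, in whole muscle in 36, with DMSO in 27, with alpha-amanitin in 26, in the isolation label in 16, in the 1 d label in 10 and in the 4 d label in 4. The lowest mean was in the isolation label for 71 genes, in whole muscle for 63 and in the 6 h label for 7. The gene with the highest mean over groups was Zfp706, a small protein known from embryonic stem cells, with 88.3 RPKM in whole muscle and 16.9 RPKM in isolated cells. Zfp639 (mean over groups 30.3 RPKM), Zfp106 (23.6 RPKM), Zfp637 (22.1 RPKM), Zfp358 (22.1 RPKM), Zfp207 (19.9 RPKM), Zfp330 (19.5 RPKM), Zfp869 (18.2 RPKM), Zfp131 (17.04 RPKM) and Zfp622 (16.7 RPKM) followed. Zfp106, needed by motor neurons and muscle, ran from 11.1 RPKM in the isolation label to 43.7 RPKM in the 1 d label, and its 6 h value of 14.4 RPKM was near that of isolated cells at 13.0 RPKM. Zfp207, a spindle protein also called BuGZ, had the opposite order between labels, 42.4 RPKM at 6 h, 16.2 RPKM at 1 d and 13.5 RPKM at 4 d.

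Alpha-amanitin against DMSO asks which transcripts of the isolated cells change when RNA polymerase II is inhibited during isolation. More of these genes fell than rose. Of 273, 62 (22.7%) were called lower, where 10.5% of all genes were, and 27 (9.89%) were called higher, where 26.5% of all genes were. The median log2 change was -0.19 over these genes and 0.10 over all genes. The groups' libraries did not overlap for 62 of the genes on the lower side (9.40% of all genes) and for 19 on the higher side (15.3%). Among those called, 8 of the 273 were at least 2-fold lower and 9 at least 2-fold higher. Over all 16979 genes these counts were 449 and 2157, so the excess of falls described here lies among changes under 2-fold.

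Genes with KRAB letters made up 38 of the 62 lower calls. Where KRAB letters were found, 38 of 125 fell and 1 rose, with a median log2 change of -0.36. Where they were not found, 23 of 146 fell and 26 rose, with a median of 0.03. By finger number, 43 of the 145 genes with at least 10 fingers fell and 5 rose, against 18 and 22 of the 126 with fewer. The difference between these classes was not tested.

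**Figure D2:**
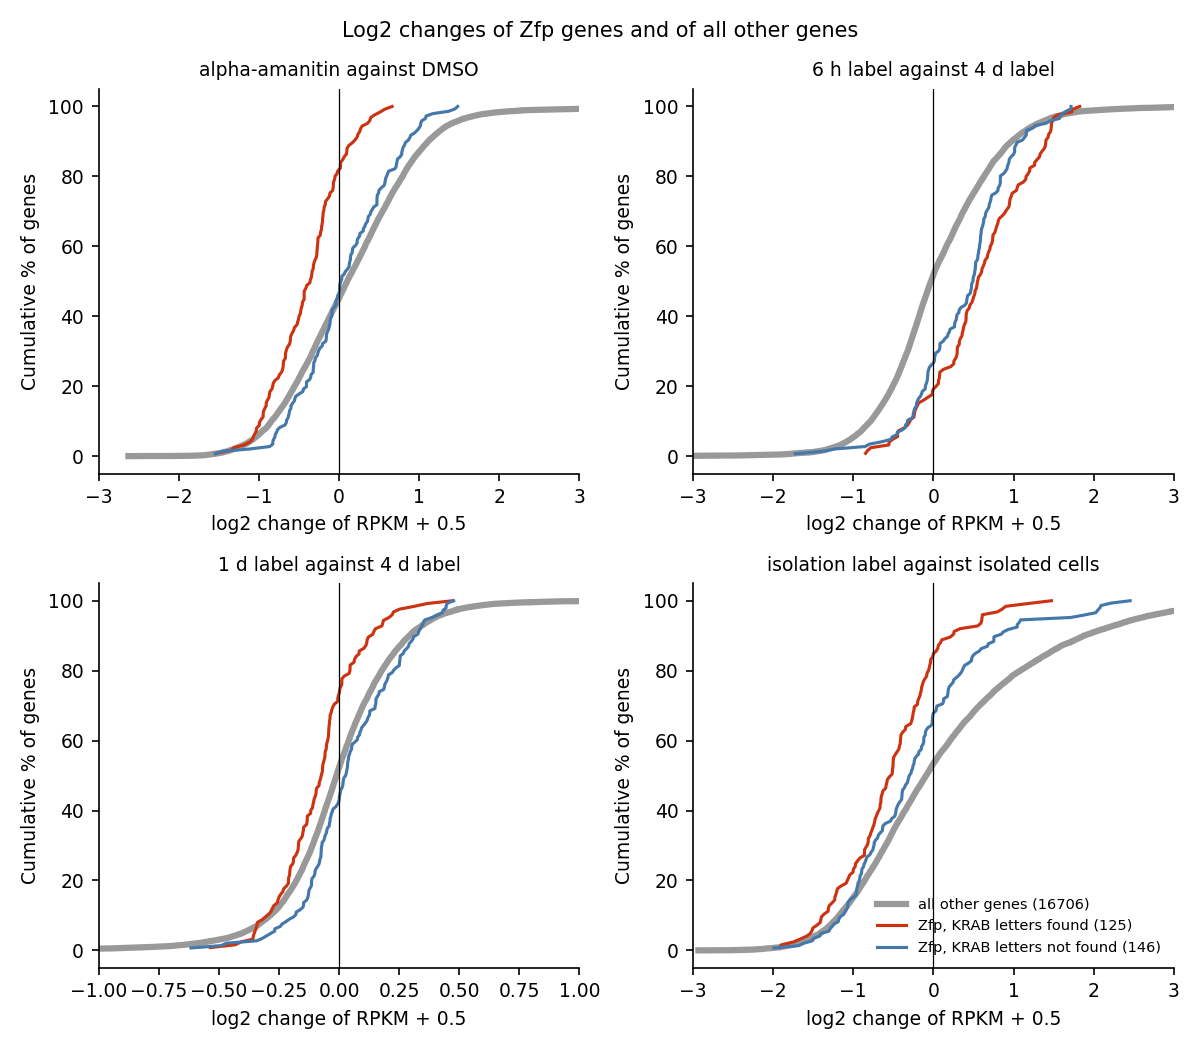
Cumulative percentage of genes (y axis) at or below each log2 change of RPKM + 0.5 (x axis, narrower in the 1 d against 4 d panel) in 4 comparisons, for all other genes (grey), Zfp genes with KRAB letters (red, 125) and without (blue, 146). With alpha-amanitin the red curve lies left of the others (median -0.36), and in the 6 h against 4 d panel both Zfp curves lie right of the grey one (medians 0.56 and 0.49).

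Zfp146 (ENSMUSG00000037029, mm10 chromosome 7, 30161274 to 30169727), also known as OZF, had the largest named fall. It stood at 2.42, 2.27, 2.79 and 2.21 RPKM in alpha-amanitin replicates 1 to 4 and at 9.24, 7.64, 7.46 and 7.78 RPKM in DMSO replicates 1 to 4. Every treated library was far below every DMSO library, a fall of 2.92-fold (log2 change -1.54, SE 0.14, adjusted p = 0.000376). Its neighbour Zfp568, a KRAB protein that silences a placental transcript of Igf2, stood at 5.65, 6.71, 7.497 and 7.82 RPKM with alpha-amanitin and at 15.0, 12.6, 13.6 and 13.8 RPKM with DMSO. These groups did not overlap either, and Zfp568 fell 1.93-fold (adjusted p = 0.0042).

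Zfp445, a KRAB protein that protects genomic imprints together with Zfp57, stood at 6.09, 3.84, 5.79 and 6.78 RPKM with alpha-amanitin and at 14.2, 11.6, 12.4 and 11.9 RPKM with DMSO, a fall of 2.16-fold (adjusted p = 0.00559). Zfp871 stood at 6.69, 2.93, 3.91 and 4.89 RPKM against 10.7, 9.81, 9.37 and 8.97 RPKM and fell 2.07-fold (adjusted p = 0.0108). The highest treated library of Zfp871 was replicate 1, and it lay below the lowest DMSO library. Zfp964 and Zfp866, neighbours on chromosome 8, fell 2.04-fold and 1.93-fold from lower levels (means of 1.51 RPKM and 3.37 RPKM with DMSO). Zfp869 of the same cluster, with the highest DMSO level of the named falls, stood at 20.3, 21.6, 24.5 and 24.2 RPKM against 45.4, 35.8, 35.6 and 32.03 RPKM and fell 1.62-fold (adjusted p = 0.0122).

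Some of the genes that rose have few fingers or a role outside DNA binding. Zfp746, also called PARIS, is a parkin substrate that represses the gene of PGC-1alpha, and had 3 fingers. It stood at 2.68, 4.18, 5.73 and 5.38 RPKM with alpha-amanitin and at 0.847, 0.878, 1.47 and 2.19 RPKM with DMSO, a rise of 2.73-fold (adjusted p = 0.00942). The lowest treated library, replicate 1, was close to the highest DMSO library but above it. Zfp598, a ubiquitin ligase that senses collided ribosomes, stood at 8.50, 13.5, 17.02 and 18.6 RPKM against 3.95, 5.10, 7.10 and 8.23 RPKM and rose 2.25-fold (adjusted p = 0.0165). Zfp706 stood at 27.9, 49.4, 51.6 and 49.9 RPKM against 23.3, 18.6, 19.3 and 19.9 RPKM and rose 2.12-fold (adjusted p = 0.00933). In each of these the treated replicate 1 lay nearest to the DMSO libraries. Zfp771 rose 2.58-fold, Zfp219, a partner of Sox9 in cartilage, 2.11-fold, and Zfp523, a relative of Zfp143, 2.03-fold, with adjusted p values of 0.0166, 0.0106 and 0.0129. Zfp358 was called (2.79-fold, adjusted p = 0.0168) although its groups overlapped, with 5.79, 19.7, 19.99 and 18.6 RPKM against 6.20, 4.41, 4.34 and 4.65 RPKM.

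**Figure D3:**
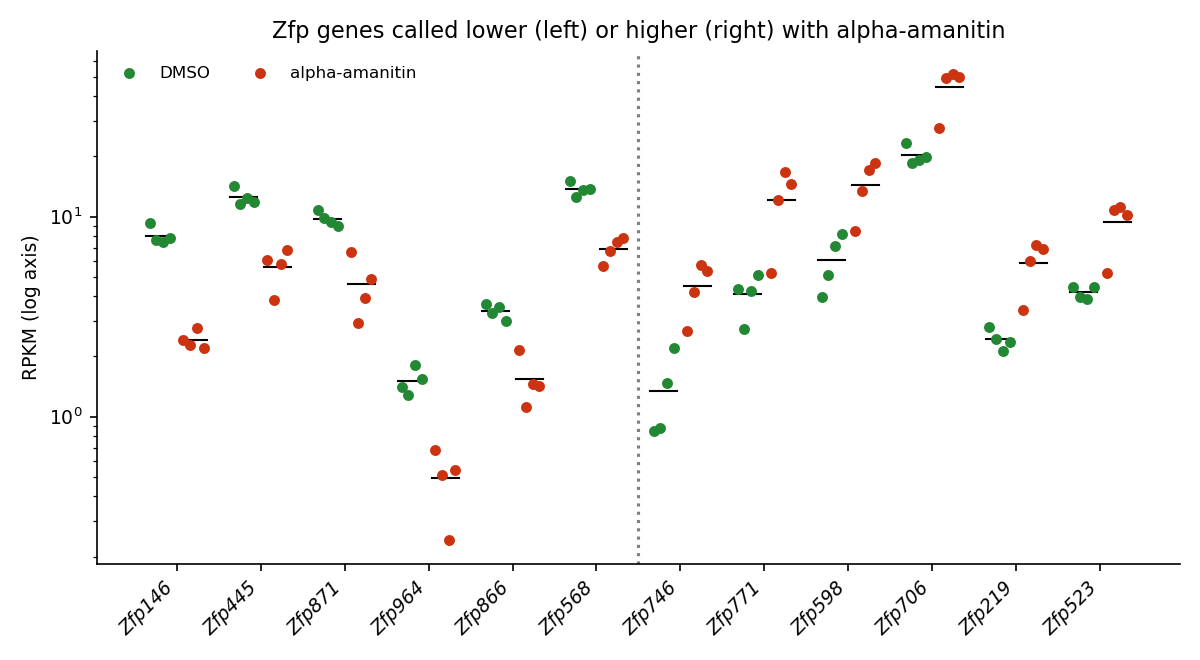
RPKM (log axis) of each DMSO library (green) and alpha-amanitin library (red) for the 6 named falls and 6 named rises, with lines at group means; points run from replicate 1 to 4. On the left every red point lies below the green ones, and on the right the first red point, replicate 1, often lies nearest to the green ones, as for Zfp706 at 27.9 RPKM.

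Of 25 genes listed for a role known from textbooks, 5 fell, 4 rose and 16 were not called. Besides Zfp146 and Zfp445, the falls were Zfp292 (1.52 RPKM ± 0.335 against 3.05 RPKM ± 0.354, 1.77-fold), Zfp638, an RNA-binding protein that silences unintegrated retroviral DNA (6.79 against 10.8 RPKM, 1.55-fold), and Zfp217, a repressor known as a breast cancer oncogene (1.05 against 1.55 RPKM, 1.32-fold). The rises besides Zfp598 were Zfp410, the activator of Chd4 (21.5 RPKM ± 3.43 against 11.4 RPKM ± 1.31, 1.85-fold), the co-repressor Zfp703 (28.97 against 16.2 RPKM, 1.73-fold) and Zfp622, which matures the large ribosomal subunit (1.92-fold, overlapping groups). Genes that missed the threshold included Zfp809, which silences murine leukaemia proviruses (adjusted p = 0.191), Zfp106 (adjusted p = 0.519), Zfp143 (adjusted p = 0.412), Zfp281 (adjusted p = 0.236) and Zfp207 (adjusted p = 0.133).

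Counts in this comparison moved with single libraries. Without alpha-amanitin replicate 1, 108 genes were lower and 69 higher, and without both replicates 1, an alternative chosen after seeing the data, 114 and 80. The 108 and 114 lower genes are 39.6% and 41.8% of the zinc finger genes, where 32.7% and 34.7% of all genes were lower. On that side the shares lie nearer each other than with every library. The 69 and 80 higher genes are 25.3% and 29.3%, where 45.3% and 49.9% of all genes were higher. The median log2 change of the zinc finger genes lay 0.33 below that of all genes in both, against 0.28 with every library. Without alpha-amanitin replicate 2, 3 or 4, 21, 26 and 30 were lower and 8 higher each time. These lower genes are 7.69%, 9.52% and 10.99%, where 2.57%, 2.93% and 3.66% of all genes were lower. The 8 higher genes are 2.93%, where 10.2%, 10.9% and 11.3% of all genes were higher. Without DMSO replicate 2, 3 or 4, 26, 22 and 27 were lower and 9, 10 and 11 higher. Here the lower ones are 9.52%, 8.06% and 9.89%, against 2.97%, 2.82% and 3.49% of all genes. The higher ones are 3.30%, 3.66% and 4.03%, against 11.6%, 11.3% and 13.1% of all genes. Leaving out DMSO replicate 1 gave 48 lower and 30 higher (17.6% and 10.99%, against 9.91% and 27.3% of all genes). With KRAB letters, 70 of 125 fell without alpha-amanitin replicate 1 and 73 without both replicates 1, while 17 rose in the latter. Without alpha-amanitin replicate 2, 3 or 4, 12, 13 and 14 of the 125 fell, and without DMSO replicate 2, 3 or 4, 13, 11 and 14.

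The direction of the rises also depended on the scaling. With library sizes from all reads, 134 genes were lower (49.1%, against 27% of all genes) and 14 higher. With library sizes from mitochondrially encoded genes, which another polymerase transcribes, 245 were lower (89.7%, against 81.8% of all genes) and 0 higher by limma, and 0 were higher at an unadjusted p under 0.05, with 28 higher by limma-voom under the authors' scaling. The median of all genes moved from 0.10 with the authors' scaling to -0.30 and -1.04 under these, while the median of the zinc finger genes stayed below it by 0.28, 0.25 and 0.24. Under the mitochondrial scaling Zfp598, Zfp706, Zfp219, Zfp523, Zfp771, Zfp410, Zfp703, Zfp622 and Zfp637 changed sign. Muscle fibre markers moved with the treatment, at 2.06% of reads with alpha-amanitin (0.905% to 2.75%) and 0.0517% with DMSO (0.0415% to 0.0628%). All 16 were called higher, as were 4 of 4 erythroid, 5 of 8 immune and 4 of 6 fibro-adipogenic markers. Satellite cell markers held 0.559% of reads with alpha-amanitin (0.532% to 0.598%) and 0.753% with DMSO (0.711% to 0.826%). Of these 10 markers, 2 were called higher and 2 lower. Mitochondrially encoded genes held 1.23% and 0.624%. Their part in the result was not tested.

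Of the genes that rose with alpha-amanitin, 17 of 27 (63.0%) were called lower in isolated cells than in whole muscle, a comparison that shares no library with it. Of those that fell, 8 of 62 (12.9%) were, and 45 were called higher in isolated cells. The same shares over all genes were 79.8% of the risers, 5.52% of the fallers and 31.3% of the genes not called.

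The 6 h label against the 4 d label asks which labelled transcripts are over-represented shortly after labelling. Here most zinc finger genes rose. Of 273, 195 (71.4%) were called higher in the 6 h label, where 41.8% of all genes were, and 44 (16.1%) lower, where 42.5% were. The median log2 change was 0.52, against -0.02 over all genes. Groups did not overlap for 190 genes on the higher side (39.7% of all genes) and 41 on the lower side (39.2%). At least 2-fold were 53 rises and 3 falls. Rises were common with KRAB letters (94 of 125, median 0.56) and without (99 of 146, median 0.49). Leaving out any single library gave 192 to 195 rises and 42 to 45 falls.

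Zfp871 stood at 13.0, 13.8, 12.5 and 12.4 RPKM in 6 h replicates 1 to 4 and at 3.69, 3.47, 3.79 and 3.25 RPKM in 4 d replicates 1 to 4. The groups were far apart, a rise of 3.31-fold (adjusted p = 9.92e-11), and the 1 d mean of 3.20 RPKM lay with the 4 d values. Zfp963, with the largest named rise, stood at 7.91, 10.7, 10.1 and 10.1 RPKM against 2.40, 2.33, 2.16 and 2.57 RPKM, a 3.55-fold change (adjusted p = 1.89e-09). Zfp281, a regulator of pluripotency, stood at 10.6, 11.7, 11.3 and 10.8 RPKM against 3.19, 3.09, 3.01 and 2.82 RPKM and rose 3.29-fold (adjusted p = 6.82e-11). None of these groups overlapped. Zfp948 rose 3.33-fold, Zfp800 3.29-fold and Zfp189 3.15-fold.

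The falls included genes of high level in muscle. Zfp106 stood at 14.5, 14.3, 14.5 and 14.1 RPKM at 6 h and at 38.1, 39.1, 37.98 and 38.1 RPKM at 4 d, a fall of 2.61-fold (adjusted p = 1.07e-11), with a spread within each group far smaller than the difference. Zfp651 stood at 7.22, 7.99, 7.96 and 8.19 RPKM against 17.8, 18.99, 19.6 and 19.8 RPKM and fell 2.34-fold (adjusted p = 5.57e-10). Zfp239 was near the bottom of the range at 6 h, with 0.476, 0.235, 0.174 and 0.305 RPKM against 2.001, 2.21, 2.12 and 2.11 RPKM, a fall of 3.31-fold. Zfp771 fell 1.81-fold, Zfp985 1.80-fold and Zfp467, which tips precursors between fat and bone, 1.74-fold (5.71 against 10.3 RPKM).

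**Figure D4:**
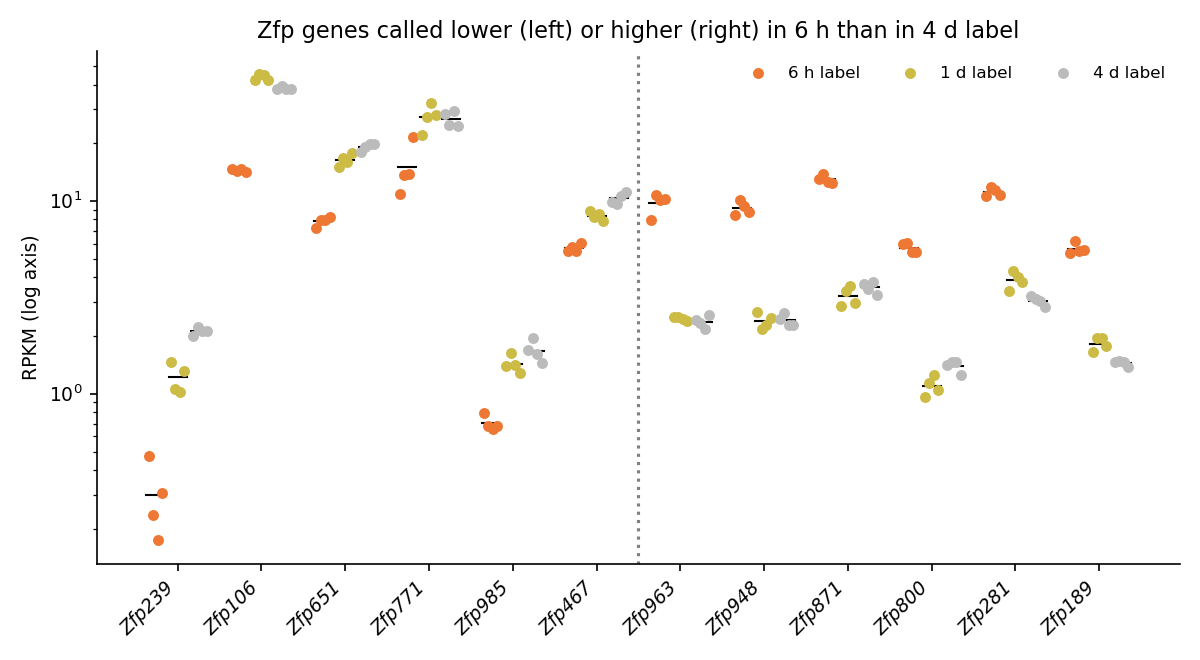
RPKM (log axis) of each library of the 6 h (orange), 1 d (yellow) and 4 d label (grey) for the 6 named falls and 6 named rises, with lines at group means. The 1 d libraries lie near the 4 d libraries for most genes, and Zfp239 steps up from a mean of 1.21 RPKM at 1 d to 2.11 RPKM at 4 d.

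Of the 25 genes with a listed role, 21 rose, 1 (Zfp106) fell and 3 were not called. Zfp207 stood at 40.9, 43.7, 42.8 and 42.5 RPKM against 13.0, 13.9, 14.2 and 13.0 RPKM, with a clear gap between the groups, and rose 3.06-fold (adjusted p = 1.99e-11). Zfp703 rose 2.99-fold (19.9 against 6.28 RPKM), Zfp410 2.36-fold (23.6 against 9.70 RPKM) and Zfp638 2.24-fold (12.3 against 5.23 RPKM). The provirus silencer Zfp809 stood at 7.36, 8.34, 9.03 and 9.36 RPKM against 3.90, 4.05, 3.63 and 3.96 RPKM and rose 2.05-fold (adjusted p = 4.24e-08). Smaller rises were those of the SUMO ligase Zfp451 (2.12 against 0.812 RPKM), the splicing and elongation factor Zfp326 (1.91-fold), the GC-box binding Zfp148 (1.90-fold), Zfp445 (1.75-fold), Zfp146 (1.52-fold) and Zfp143 (6.27 against 4.08 RPKM, 1.47-fold). Zfp598 (adjusted p = 0.292), Zfp622 (adjusted p = 0.188) and the preadipocyte factor Zfp423 (adjusted p = 0.708) missed the threshold.

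Muscle fibre markers held 10.8% of reads at 6 h (10.7% to 10.9%) and 19.1% at 4 d (18.9% to 19.5%), and all 16 were called lower at 6 h. Of the 10 satellite cell markers, 7 were higher and 3 lower at 6 h, and all 4 erythroid markers were lower. The pull-downs came from whole muscle, and the part of these shares in the zinc finger changes was not tested. With library sizes from all reads, 207 genes (75.8%) were higher, against 47.1% of all genes, and 31 lower.

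Against the 1 d label, with which the 6 h libraries are shared, 195 genes were higher (40.1% of all genes) and 40 lower (39.7%), with a median log2 change of 0.48. KRAB letters were found in 99 of the rises and 9 of the falls. Zfp799 (3.99 against 0.856 RPKM, 3.31-fold) and Zfp763 (3.19-fold), both of a chromosome 17 cluster, joined the largest rises, and Zfp652 fell 1.54-fold. All 16 fibre markers were again lower at 6 h (19.7% of reads at 1 d).

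Between the 1 d and the 4 d label changes were small and in both directions. Of the 273 genes, 47 were higher at 1 d (22.1% of all genes) and 49 lower (19.8%), and the median log2 change was -0.04. With KRAB letters 6 rose and 31 fell, and without them 41 rose and 18 fell. The largest named rise was that of Zfp703 (8.94 against 6.28 RPKM, 1.39-fold, adjusted p = 4.36e-06), followed by Zfp266, Zfp512, Zfp317, Zfp821 and Zfp410 (13.3 against 9.70 RPKM, 1.35-fold). The largest named fall was that of Zfp239 (1.21 against 2.11 RPKM, 1.53-fold, adjusted p = 9.16e-05), followed by Zfp937, Zfp950, Zfp935, Zfp934 and Zfp931. The 4 erythroid markers were all lower at 1 d, with 0.0635% of reads against 0.218%, and 5 of 8 immune markers were lower. Their part in the result was not tested.

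The inhibitor and the label comparisons share no library, so their calls can be set side by side. Of the 62 genes that fell with alpha-amanitin, 51 (82.3%) were higher in the 6 h than in the 4 d label and 5 lower. Of the 184 not called with alpha-amanitin, 132 (71.7%) were higher. Of the 27 that rose, 12 (44.4%) were higher and 10 lower. Over all genes, 48.3% of those that fell with alpha-amanitin, 44.8% of those not called and 31.95% of those that rose were higher at 6 h. The 51 genes are 26.2% of the 195 that rose at 6 h. Across the 273 genes the 2 log2 changes had a Pearson r of -0.075 as a description. Both changes come from the same gene models, and near-identical copies can share reads. Zfp871, Zfp869, Zfp866 and Zfp445 both fell with the inhibitor and rose at 6 h. Zfp963 and Zfp281 rose at 6 h and were not called with the inhibitor, and Zfp358 and Zfp771 rose with the inhibitor and fell at 6 h.

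**Figure D5:**
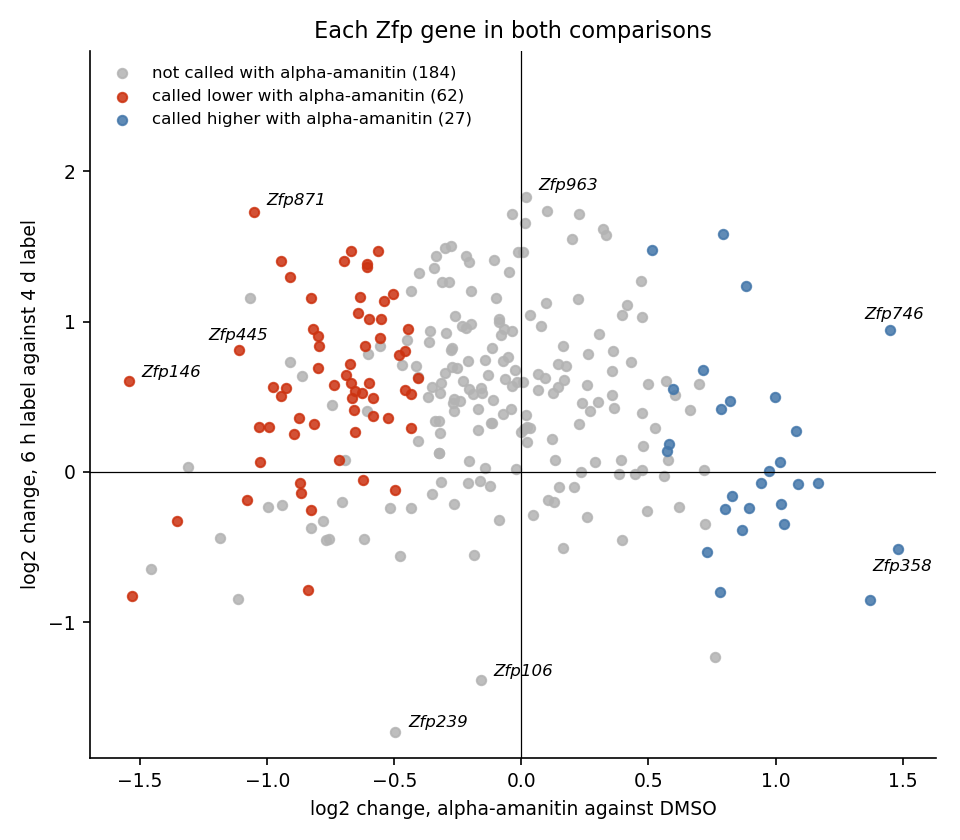
Each point is 1 of the 273 genes, with its log2 change with alpha-amanitin against DMSO (x axis) and in the 6 h against the 4 d label (y axis), coloured by its alpha-amanitin call. Of the 62 red points 51 were called higher at 6 h, while the 27 blue points lie on both sides of 0.

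Some of the clusters of neighbouring genes are set out here, picked after their values were seen. They were grouped by position alone, and how alike their sequences are was not measured. On chromosome 17, from 21567046 to 22071168, lay 8 genes (Zfp948, Zfp983, Zfp760, Zfp229, Zfp820, Zfp995, Zfp942 and Zfp943), all 8 higher at 6 h and 5 lower with alpha-amanitin. A second cluster there, from 32771236 to 33106203, held Zfp871, Zfp811, Zfp799, Zfp870, Zfp472, Zfp952, Zfp763 and Zfp563, with 7 higher at 6 h, and 2 lower and 1 higher with alpha-amanitin. Zfp568, Zfp566, Zfp260, Zfp382 and Zfp146 on chromosome 7, from 29983955 to 30169727, gave 3 falls with alpha-amanitin and 4 rises at 6 h. Another chromosome 7 cluster, from 4915217 to 5053722 (Zfp628, Zfp579, Zfp524, Zfp865, Zfp784 and Zfp580), gave 3 rises with alpha-amanitin. On chromosome 8, from 69610857 to 69791178, neighbours differed. Zfp868 and Zfp963 rose 2.93-fold and 3.55-fold at 6 h and had log2 changes of 0.20 and 0.02 with alpha-amanitin, not called, whereas Zfp869 and Zfp866 rose at 6 h (2.64-fold and 2.65-fold) and fell with alpha-amanitin. Zfp964, between Zfp868 and Zfp869, fell with alpha-amanitin and was not called at 6 h (log2 change 0.06, adjusted p = 0.436).

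The promoter letters printed above were present in each class of call. They stood in 9 of 54 promoters of genes lower with alpha-amanitin (16.7%), 18 of 149 not called (12.1%) and 2 of 23 higher (8.70%). In the label comparison they stood in 21 of 161 promoters of genes higher at 6 h (13.0%) and 6 of 40 lower (15.0%). The printed genes were partly picked after their values were seen, so their calls do not stand for all genes with the letters. Among them, Zfp146, Zfp273, Zfp429, Zfp260 and Zfp748 fell with alpha-amanitin (log2 changes of -1.54, -0.82, -0.67, -0.63 and -0.51). Zfp112 and Zfp189 were not called (-0.36 and 0.01), and Zfp358 rose.

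Labelled RNA of the isolation against the total RNA of isolated cells asks which transcripts were made during isolation. Zinc finger genes tended to be lower in the labelled RNA. Of 273, 106 were lower (29.5% of all genes) and 21 higher (27%), with a median log2 change of -0.42 against -0.09 over the other genes. With KRAB letters 51 fell and 3 rose, and without them 53 fell and 18 rose. Zfp352, a gene known from the preimplantation embryo, stood at 0.638, 0.512, 0.612 and 0.464 RPKM in the label and at 3.60, 3.75, 3.79 and 3.61 RPKM in isolated cells. It fell 3.97-fold with no overlap (adjusted p = 9.91e-06). Zfp985 (3.79-fold), Zfp981 (3.72-fold), Zfp976 (ENSMUSG00000092335, which the reference annotation names Zfp977, 3.36-fold), Zfp708 (3.20-fold) and Zfp534 (3.17-fold) also fell. Zfp358 stood at 16.2, 17.5, 31.6 and 29.9 RPKM against 3.57, 4.10, 3.45 and 3.86 RPKM and rose 5.49-fold (adjusted p = 1.97e-05), followed by Zfp467 (4.64-fold), Zfp775, Zfp511, Zfp771 (4.14-fold) and Zfp428 (4.07-fold).

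Fibre markers held 5.05% of reads in the isolation label (2.38% to 7.91%) and 0.103% in isolated cells (0.0706% to 0.148%), all 16 called higher, and 8 of 10 satellite cell markers were lower, and 7 of 8 immune and 4 of 4 erythroid markers were higher. Their part in the result was not tested. With library sizes from all reads, 188 zinc finger genes (68.9%) were lower, against 49.0% of all genes, and 11 higher, and the median of all genes was -0.62. Of the 195 genes higher at 6 h than at 4 d in vivo, 83 were lower in the isolation label than in isolated cells, 7 were higher and 105 were not called. Those 2 comparisons share no library.

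Isolated cells against whole muscle gave 137 genes higher (53.5% of all genes) and 110 lower (41.5%), with a median log2 change of 0.15 against 0.31 over all genes. Zfp568 stood at 10.1, 10.8, 9.97 and 9.77 RPKM in isolated cells and at 1.12, 1.23, 1.22 and 1.19 RPKM in whole muscle, a difference of 6.29-fold with no overlap (adjusted p = 7.31e-14). Zfp981 (3.79 against 0.0671 RPKM), Zfp352 (3.69 against 0.0796 RPKM) and Zfp985 (6.57 against 0.529 RPKM) were 7.57-fold, 7.24-fold and 6.87-fold higher in the cells. Zfp467 had the largest difference on the other side, with 0.465, 0.524, 0.504 and 0.417 RPKM in isolated cells and 10.4, 10.3, 10.1 and 10.7 RPKM in whole muscle, 11.1-fold lower in the cells (adjusted p = 1.32e-14). Zfp825 and Zfp358 were 7.36-fold and 7.26-fold lower, and Zfp637, Zfp768 and Zfp641 between 5.54-fold and 6.26-fold. The split depended on scaling. With library sizes from all reads 233 genes (85.3%) were higher in isolated cells, against 76.4% of all genes, and 27 lower, and the median of all genes moved to 1.47.

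Fixed against unfixed cells compares stem cells of mice perfused with paraformaldehyde before sorting with stem cells sorted without it. Of 244 genes, 24 were higher in fixed cells (10.9% of all genes) and 10 lower (9.87%), with a median log2 change of 0.29 against 0.07 over the other genes. Zfp655 stood at 4.19, 5.26, 2.51 and 2.87 RPKM in fixed replicates 1, 3, 4 and 5 and at 31.3, 27.5 and 27.6 RPKM in unfixed replicates 1 to 3. It fell 7.19-fold with no overlap (adjusted p = 0.00024). Zfp131, a BTB zinc finger protein, stood at 15.0, 20.4, 14.04 and 18.02 RPKM against 44.7, 49.1 and 49.7 RPKM and fell 2.81-fold (adjusted p = 0.00102). Zfp869, lower by 7.68-fold, varied widely among fixed libraries, with 2.03, 8.55, 0.751 and 7.73 RPKM against 30.95, 23.3 and 35.9 RPKM. Zfp948 (4.85-fold), Zfp954 (3.87-fold) and Zfp281 (2.50-fold) fell as well. Zfp637 stood at 35.3, 55.1, 58.0 and 46.9 RPKM against 13.5, 9.53 and 10.1 RPKM and rose 4.24-fold (adjusted p = 0.000437). Zfp688 (4.27-fold), Zfp524 (4.18-fold), Zfp553 (4.10-fold), Zfp580 (3.58-fold) and Zfp704 (3.09-fold) also rose.

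These counts are small and moved with single libraries. Without unfixed replicate 1, 2 or 3 there were 14, 15 and 9 rises and 5, 6 and 5 falls, and without fixed replicate 3 there were 14 and 8. In that order the rises are 5.74%, 6.15%, 3.69% and 5.74%, against 7.48%, 6.88%, 5.57% and 8.89% of all genes. The falls are 2.05%, 2.46%, 2.05% and 3.28%, against 7.11%, 6.77%, 5.40% and 8.11% of all genes. Satellite cell markers held 0.398% of reads in fixed and 0.695% in unfixed cells, and mitochondrially encoded genes 4.60% and 1.48%. All 6 endothelial markers were called lower in fixed cells, with 0.0140% of reads against 0.0846%, and 5 of 16 fibre markers were lower (0.132% against 0.335%). Their part in the result was not tested. Levels were not compared across the 2 tables.

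Related families were described for the same comparisons. Over all genes, 10.5% fell and 26.5% rose with alpha-amanitin, and 41.8% rose and 42.5% fell at 6 h against 4 d. Zfp genes with 1 or 2 digits had 11 falls and 1 rise of 47 with alpha-amanitin (median log2 change -0.29) and 36 rises and 4 falls at 6 h against 4 d. Zfp genes with 3 digits and a letter had 7 falls of 25 with alpha-amanitin (median -0.40) and 21 rises and 3 falls at 6 h. Zbtb genes, which carry a BTB domain in place of KRAB, had 3 falls and 6 rises of 37 with alpha-amanitin (median 0.18) and 26 rises and 5 falls at 6 h. Zscan and Zkscan genes had 3 falls and 2 rises of 18, and 12 rises and 4 falls.

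Of 32 genes for co-repressor partners of KRAB proteins, 9 rose with alpha-amanitin (28.1%, against 26.5% of all genes). In that comparison 7 fell (21.9%, against 10.5% of all genes). At 6 h against 4 d, 21 rose and 8 fell, where 41.8% and 42.5% of all genes did. Trim28, which binds the KRAB box, stood at 21.9 RPKM ± 6.98 with alpha-amanitin and 6.70 RPKM ± 2.06 with DMSO and rose 3.06-fold (adjusted p = 0.0080). Setdb1 stood at 3.14 RPKM ± 0.61 and 4.21 RPKM ± 0.07 and missed the threshold (adjusted p = 0.0698). Fam208a, a subunit of the HUSH silencing complex, fell (3.60 against 6.87 RPKM, adjusted p = 0.0135), as did Smarcad1, a chromatin remodeller that acts with Trim28 (2.88 against 5.24 RPKM, adjusted p = 0.0068), the Setdb1 partner Atf7ip (adjusted p = 0.0268) and the HUSH-associated Morc2a (adjusted p = 0.0284). At 6 h against 4 d, Fam208a rose 2.53-fold, Smarcad1 2.40-fold, Atf7ip 1.82-fold, Morc2a 1.55-fold and Setdb1 1.39-fold. Trim28 was slightly lower at 6 h (10.3 against 11.5 RPKM, adjusted p = 0.0254).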

How the data were processed

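The authors deposited RPKM per gene in 2 tables, which were scaled separately, so tests stayed within a table. The submitters' processing notes list the mm10 build and the tools edgeR, STAR, Trim Galore, Subread and featureCounts; the sources used here do not give versions or settings. The larger table's header stands 1 cell left of its values, and columns were read after that shift. Each RPKM, multiplied by gene length and a factor per library, gave whole reads within 0.1 for 100% of values, from which read totals and the authors' scaling factors were taken.

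Tests used limma 3.58.1 (R 4.3.3) with trend on log2(RPKM + 0.5) of the groups compared, over every gene with no filter and no imputation, and Benjamini-Hochberg adjustment over all genes of the table. Every adjusted p printed comes from limma. Its script was tested on simulated data. Figures came from matplotlib 3.10.9 and tables from pandas 2.3.3 and numpy 2.4.6 (Python 3.11.15). Alternatives were a pseudocount of 0.1, a filter of 1 RPKM in 3 libraries, other library factors, limma-voom, all groups in 1 fit, a replicate block and each library left out.

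Named were, per comparison, the up to 6 largest rises and 6 largest falls, taken from called genes without overlap between libraries whose higher group mean reached 1 RPKM, 25 genes with known roles, and the 10 of highest level. Some were left out, among them the role genes Zfp335, Zfp346, Zfp462, Zfp503, Zfp516, Zfp521 and Zfp609, and some are named without values. Members and lists were chosen with earlier results of these data known. Zfp358 and Zfp637 among overlapping genes, Zfp260, Zfp429, Zfp748, Zfp273 and Zfp112, and the members of clusters were named after their values were seen. Finger and KRAB patterns were searched in the longest reading frame of each gene's protein-coding transcripts in the reference annotation.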

Additional observations from a re-analysis of the deposited data

Results flagged for a closer look

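In 8 of 147 sets of 4 libraries of named genes, 1 library stood far from the other 3, where chance gives about 1 set in 20. With alpha-amanitin these were Zfp706 at 27.9 RPKM and Zfp523 at 5.25 RPKM, both low in replicate 1. Zfp106 stood high at 39.1 RPKM in 1 library of the 4 d label. Zfp976 (ENSMUSG00000092335) stood apart at 0.434 RPKM in the isolation label, Zfp358 at 27.4 RPKM in whole muscle and Zfp768 at 2.72 RPKM in isolated cells. In fixed cells 1 library each stood apart for Zfp580 at 63.8 RPKM and Zfp954 at 3.45 RPKM.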

How the results depend on the processing

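With alpha-amanitin against DMSO (27 genes higher, 62 lower), library sizes from all reads gave 14 and 134, library sizes from mitochondrially encoded genes 0 and 245, and all groups in 1 fit 50 and 102. Leaving out libraries gave 8 to 80 higher and 21 to 114 lower. Under the mitochondrial scaling the log2 change turned to -0.038 for Zfp771, -0.27 for Zfp598, -0.40 for Zfp706, -0.25 for Zfp219, -0.38 for Zfp523, -0.58 for Zfp410, -0.52 for Zfp622, -0.68 for Zfp703 and -0.53 for Zfp637. In the 6 h against the 4 d label, the filter, which tests 218 genes, left 26 lower. All groups in 1 fit gave 11 lower there, 10 lower at 6 h against 1 d, 4 higher and 2 lower at 1 d against 4 d, and 37 higher in the isolation label. Library sizes from all reads gave 11 higher and 188 lower in the isolation label, and 233 higher and 27 lower in isolated cells against whole muscle, where the log2 change turned to 1.15 for Zfp207, 0.78 for Zfp622 and 0.50 for Zfp330. In fixed against unfixed cells, leaving out libraries gave 9 to 33 higher and 5 to 12 lower. The cause of these shifts was not tested, apart from the fewer genes that the filter tests. All groups in 1 fit was not run for fixation, which has 2 groups.

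Replicate numbers are shared by the groups, but the labels do not say that they pair libraries. Correlations of same-numbered deviations were -0.629 to -0.150 for alpha-amanitin and DMSO, where differently numbered ones ran from -0.573 to 0.618. In the other comparisons same-numbered ones were at most 0.205. That value came from isolated cells and whole muscle, where differently numbered ones were at most 0.0598. Such correlations cannot show whether libraries came from the same animals. A replicate block gave 2 higher and 7 lower with alpha-amanitin (0.733% and 2.56%, against 5.33% and 0.677% of all genes). In fixed cells the block gave 9 higher and 6 lower (3.69% and 2.46%, against 5.27% and 6.48% of all genes). The other counts stayed within 1.5 times. A tally over all alternatives covered only the named genes that were called in the main test. Of its values, 2125 kept direction and call, 99 kept direction and lost the call, and 12 reversed, all listed above. Named genes not called in the main test were not in it, so it cannot show calls gained. The isolation label, with 2321903 to 7742378 reads per library, gives the least precise values of low genes.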
